A study of Mus musculus with 6 samples.

Results

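Non-cycling Cdkn1a-high cells are cells of cultured mouse muscle-derived stem/progenitor populations that carried few transcripts of the division machinery and many of Cdkn1a, the gene of the cyclin-dependent kinase inhibitor p21. They were chosen by their own counts of unique molecular identifiers (UMIs), random tags that let copies of an RNA molecule be counted once. Among barcodes with 5000 or more UMIs and under 15% mitochondrial UMIs, a cell was taken when its UMIs of 10 genes of G2 and mitosis (Top2a, Cdk1, Ube2c, Cenpf, Mki67, Ccnb2, Cdc20, Birc5, Tpx2 and Hmmr) summed to 2 or fewer and Cdkn1a reached 10 or more per 10000 UMIs. This rule found 4111 of 60325 kept cells (6.81%). Since these 11 genes chose the cells, their levels are a description and were not tested.

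Muscle-derived stem/progenitor cells are the slow-sticking fraction of digested skeletal muscle, enriched by moving the cells that had not yet attached to new flasks again and again. The study grew 6 such cultures, 3 of young and 3 of old mice, in serum-rich proliferation medium with chick embryo extract, and counted their transcripts cell by cell on droplets at the 3′ end. All populations shared this culture, no group carried a named allele or treatment, and the labels give no strain, sex or age in months and do not say whether animals were pooled. Each population is 1 library and 1 replicate, so p-values measure the spread between these cultures.

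p21 binds cyclin and kinase complexes and holds cells before DNA replication. The tumour suppressor p53 induces it together with other targets after damage, and in the muscle lineage it is also induced, independently of p53, as myoblasts leave the cell cycle and differentiate. Lasting p21 is also among the marks of senescent cells, which are known for secreted inflammatory and matrix-cutting proteins and for loss of the lamin gene Lmnb1.

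Values for single populations are given in the order young replicates 1, 2 and 3, then old replicates 1, 2 and 3. The selected cells numbered 343, 762, 48, 99, 2697 and 162. Old replicate 2 therefore held 65.6% of them, and without it 1414 cells remained. They made up 4.06%, 7.15% and 0.451% of the kept cells in the young populations, with 95% Wilson intervals of 3.66 to 4.5, 6.68 to 7.66 and 0.341 to 0.598, which cover counting error only. In the old populations they made up 0.999%, 31.7% and 1.33%, with intervals of 0.822 to 1.22, 30.7 to 32.7 and 1.14 to 1.55. Old replicate 2 stood above all other populations, and the other old populations lay inside the young range.

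Non-cycling cells of either kind were 42.4%, 24.1%, 7.61%, 13.5%, 43.2% and 21.6% of the kept cells. The Cdkn1a-high share of these non-cycling cells was 9.59%, 29.7%, 5.93%, 7.39%, 73.3% and 6.15%, highest in old replicate 2 and next in young replicate 2. In old replicate 2 high Cdkn1a also extended to cycling cells. There 2220 of 4832 cycling cells (45.9%) reached the same 10 per 10000, against 3.7%, 7.42%, 0.305%, 5.31% and 0.44% in young replicates 1, 2 and 3 and old replicates 1 and 3.

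The mean share was 11.3% ± 17.6 (SD, n = 3) in the old and 3.89% ± 3.36 (SD, n = 3) in the young populations, and the groups overlapped. The difference of 7.45 percentage points gave p = 0.8 in a two-sided exact permutation test, whose smallest possible p with 3 against 3 is 0.1. Without old replicate 2 the difference turned to -2.72 points. Among the 4 libraries counted on the longer of the submitters' gene lists it was 12.7 points, and between the single young and the single old library on the shorter list it was -3.06 points.

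**Figure D1:**
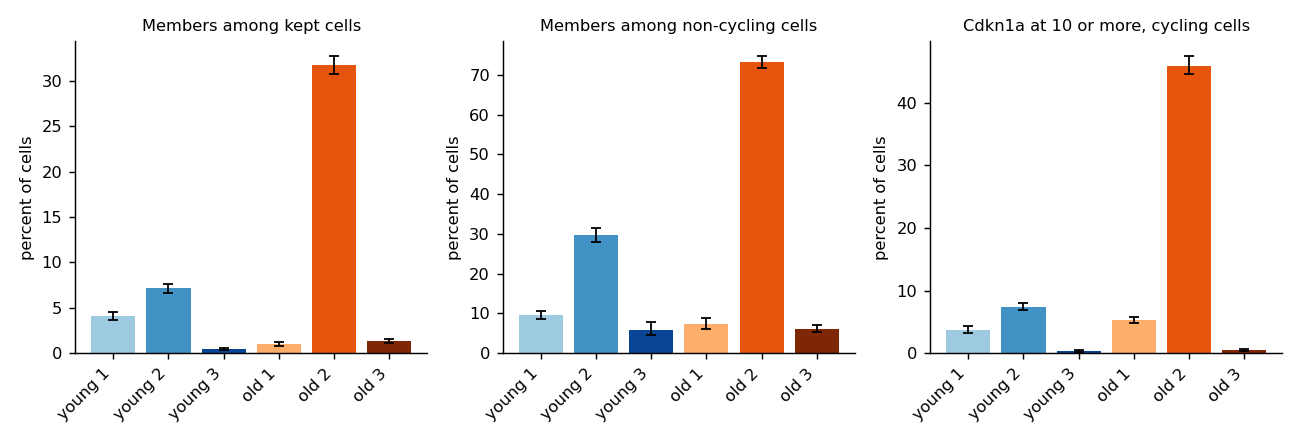
Share of non-cycling Cdkn1a-high cells (members) among kept cells, their share among non-cycling cells, and the share of cycling cells with the same Cdkn1a level, in percent of cells per population, with 95% Wilson intervals. Old replicate 2 reaches 31.7%, 73.3% and 45.9%.

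The comparison group was the 10494 non-cycling cells of the same populations with Cdkn1a under 10 per 10000 UMIs, called Cdkn1a-low cells. It meets the same limit on the G2 and mitosis genes, so the classes are defined by the Cdkn1a limit alone. The Cdkn1a-high cells had median depths of 10271, 15038, 11323.5, 11657, 20139 and 14212.5 UMIs, against 12169, 14303.5, 11172, 10865, 17026 and 11305 in Cdkn1a-low cells. Their median mitochondrial share was 3.71%, 3.8%, 4.42%, 3.38%, 2.97% and 3.1%, above the 2.52%, 3.46%, 3.27%, 2.5%, 2.85% and 2.74% of Cdkn1a-low cells in each population. The part of mitochondrial share in the results was not tested. Any pair of libraries shared 22 to 35 barcodes, of which at most 1 was a selected cell in both.

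Counts of all cells of a class were summed per population, and levels are given as CPM, each count divided by the summed counts of its class and scaled to 1000000. Cdkn1a stood at 2082, 2385, 1837, 1916, 3044 and 1467 CPM in the selected cells and at 281, 403, 129, 348, 598 and 145 CPM in Cdkn1a-low cells, as the rule fixed. The highest level among both the selected and the Cdkn1a-low cells was in old replicate 2. Within the selection the median cell held 16.8, 19.1, 15.7, 14.5, 24.6 and 13.5 Cdkn1a UMIs per 10000. Just inside the limit, at 10 to 12 per 10000, lay 554 cells, and just outside, at 8 to 10, lay 648 non-cycling cells. At the other limit, 960 selected cells had a sum of 2 for the G2 and mitosis genes, and 432 cells with high Cdkn1a had a sum of 3 and were left out.

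Cdkn1a lies at chr17:29090976-29100727 on the forward strand of GRCm38. RefSeq gives it more than 1 start, and the 250 bases before the first hold a match to the p53 response element, shown because Cdkn1a defines the cells and the targets of p53 are tested below. Capitals mark the match, which has 1 mismatch in 20 letters and begins 51 bases before that start. The window before the other start, chr17:29093519-29093768, holds no match. The same search found a match with 1 mismatch, beginning 195 bases before the RefSeq start, in Ccng1 (cyclin G1, chr11:40748552-40755311, reverse strand), a p53 target named beside Cdkn1a as a marker of these cells. The windows are chr17:29090729-29090978 and chr11:40755287-40755536 of RefSeq's GRCm38.p6 annotation, written 5′ to 3′ on the gene's strand. The gene intervals come from GENCODE's annotation, whose starts differ from RefSeq's, so that annotated exons there cover 3 bases of the first Cdkn1a window, 250 of the 250 of the other and 25 of that of Ccng1.
Cdkn1a: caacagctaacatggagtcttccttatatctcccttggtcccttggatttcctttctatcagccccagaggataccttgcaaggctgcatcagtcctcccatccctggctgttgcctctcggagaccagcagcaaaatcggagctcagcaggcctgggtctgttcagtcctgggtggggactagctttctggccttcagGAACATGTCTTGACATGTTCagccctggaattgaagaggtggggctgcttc
Ccng1: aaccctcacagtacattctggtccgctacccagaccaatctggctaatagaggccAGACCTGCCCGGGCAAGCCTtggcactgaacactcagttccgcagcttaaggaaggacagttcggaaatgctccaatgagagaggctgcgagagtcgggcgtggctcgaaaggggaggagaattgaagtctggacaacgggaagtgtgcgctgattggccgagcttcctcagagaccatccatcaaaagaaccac
Of 27025 genes with such a window, 0.0925% held a match at this limit on either strand. Of 28 matched genes from a list of 37 p53 targets that leaves out Cdkn1a, 2 held it, namely Ccng1 and Rps27l. A match is a description of letters, not a bound site.

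The marker genes named beside Cdkn1a did not pass the main test. Gdf15, a secreted stress cytokine and p53 target, stood at 36.9, 2.29, 3.77, 58.6, 148 and 22.5 CPM in Cdkn1a-high cells and at 41.6, 0.893, 2.63, 40.2, 164 and 33.7 CPM in Cdkn1a-low cells. It was higher in 3 of 6 populations, with a log2 fold change of 0.07 ± 0.21 (SE; edgeR quasi-likelihood test, adjusted p = 0.863). Ccng1 stood at 414, 131, 139, 296, 364.5 and 164 CPM against 286, 112, 174.5, 251, 336 and 192 CPM, higher in 4 of 6 populations (log2 fold change 0.12 ± 0.09, edgeR adjusted p = 0.381). At a Cdkn1a limit of 5 Ccng1 passed (0.25, edgeR adjusted p = 0.0251), and on the shorter gene list alone its fold change was 0.34. Here and below, a changed Cdkn1a limit applies to both classes, so the Cdkn1a-low cells change with it. The Ccng1 fold change was above 0 in every setting. Since neither gene passed in the main fit, the cells are called here by the rule.

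Between the classes, 1224 of 11663 genes tested (10.5%) were higher in Cdkn1a-high cells and 1399 (12%) were lower, at an adjusted p under 0.05 in edgeR with the population as a term. By direction alone, 11.3% of the tested genes were higher and 16.3% lower in 6 of 6 populations. The median log2 fold change over all tested genes was -0.05.

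Genes of the contractile apparatus and of myoblast fusion were among the largest rises. Of 22 muscle differentiation genes, 18 were higher, none was lower and 4 did not pass, and 22 were higher in 6 of 6 populations. Their median log2 fold change was 4.35, against -0.05 over all genes. Ttn, the giant spring protein titin, was among those that did not pass, at 1699, 2819, 1688, 1331, 1314 and 2674 CPM against 79.6, 1237, 28, 36.8, 318 and 1079 CPM (log2 fold change 3.3 ± 0.91, edgeR adjusted p = 0.0553).

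Mylpf, the regulatory myosin light chain of fast muscle, stood at 9459, 9157, 8916, 4124, 1495 and 32743 CPM in Cdkn1a-high cells and at 108, 978, 122, 46.1, 34.7 and 12708 CPM in Cdkn1a-low cells. It was higher in the selected cells of every population, and the Cdkn1a-low cells of old replicate 3 carried more of it than the selected cells of the other 5 populations. The log2 fold change was 5.04 ± 0.97 (SE; edgeR adjusted p = 0.0211). Acta1, skeletal muscle actin, stood at 3238, 5279, 4897, 1837, 736 and 10796 CPM against 31.1, 449.5, 99.8, 20.3, 6.75 and 4827 CPM (5.25 ± 1.04 on the log2 scale, edgeR adjusted p = 0.0226). In the selected cells both genes were highest in old replicate 3 and lowest in old replicate 2.

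Actc1 (an actin of heart and early muscle), Myl4, Tnnc2, Myh3 (embryonic myosin heavy chain), Tnnc1, Mybph and Tcap rose by 4.63 to 5.52 on the log2 scale, and Mb (myoglobin) and Smim5 by 4.62 and 4.95. The fusion proteins myomaker (Mymk) and myomixer (Mymx) rose by 4.29 ± 0.85 and 4.49 ± 0.86 (edgeR adjusted p = 0.0225 and 0.0211). Mymk stood at 384, 265, 377, 282, 66.8 and 882 CPM against 6.7, 23.6, 8.58, 3.98, 5.35 and 447.5 CPM. Its Cdkn1a-low level in old replicate 3 again exceeded the selected cells of the other populations.

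Myog, the gene of myogenin, which commits myoblasts to differentiation, stood at 712, 2666, 2745, 539.5, 449 and 2693 CPM against 9.87, 177, 77.1, 4.74, 18.9 and 1660.3 CPM. The smallest ratio between the classes was in old replicate 3, whose Cdkn1a-low cells were already high. The log2 fold change was 4.69 ± 0.95 (SE; edgeR adjusted p = 0.0237). Of 16 tested myogenic regulators, 6 were higher and 1 lower, with a median of 0.76, where 10.5% of all genes were higher and 12% lower. The rises numbered 4, 3 and 3 without young replicate 1, 2 or 3 and 4, 4 and 8 without old replicate 1, 2 or 3. On the longer gene list alone 3 of 16 rose (median 0.47), and on the shorter the median was 1.36. The muscle transcription factor genes Mef2c and Mef2a rose by 3.16 ± 0.53 and 1.56 ± 0.13 (edgeR adjusted p = 0.0144 and 0.000484), and Myf6 by 2.5 ± 0.58 (adjusted p = 0.0259). Pax3, a factor of undifferentiated muscle progenitors, fell by 0.89 (adjusted p = 0.00651). Myod1, which acts before myogenin, was higher in 5 of 6 populations and did not pass (1.59 ± 0.48, edgeR adjusted p = 0.0707), and the satellite cell marker Pax7 stood at -0.65 ± 0.33 (adjusted p = 0.219).

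Tpm1, a tropomyosin of muscle and other cells that is outside the lists, rose with a smaller standard error than Mylpf. It stood at 5672, 5828, 3712, 2484, 3454 and 7997 CPM against 1894, 2474.5, 1390.0, 912, 1701 and 4611 CPM, a log2 fold change of 1.27 ± 0.08 (SE; edgeR adjusted p = 0.000123). In a list of TGF-beta and YAP targets 5 of 10 tested genes rose and 3 fell, where 10.5% of all genes were higher and 12% lower. The rises and falls numbered 3 and 1 without young replicate 1, 3 and 2 without young replicate 2, 4 and 1 without old replicate 1, 5 and 2 without old replicate 3, and 3 and 1 on the longer gene list alone. Acta2, smooth muscle actin, rose by 2.43 ± 0.52 (adjusted p = 0.0275), Ldb3, a protein of the sarcomere's Z-disc, by 3.17 ± 0.51 (adjusted p = 0.0117) and Ankrd1 by 0.68 ± 0.11, while Ccn2 and Axl fell by 1.6 and 0.61. In cells without the muscle program, described below, the list median was 0.09. Only Acta2 was called there, higher in 2 of 3 populations.

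The muscle calls rested on large fold changes with a large spread. Leaving out young replicate 1, 2 or 3 left 0, 1 or 2 of the 22 genes called, and leaving out old replicate 1, 2 or 3 left 11, 4 or 19, with 22 of 22 above 0 each time and medians of 3.96 to 5.03. Within the 4 libraries on the longer gene list 0 of 22 were called (median 3.45, lowest edgeR adjusted p = 0.0778). The pair on the shorter list, 1 library per age group, gave a median of 6.25, with 22 of 22 above 0. Calls within that pair are not counted, since it holds so few libraries.

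The muscle program was unevenly spread among the selected cells. Summed over the 22 genes, the median selected cell held 57.5, 154, 243.5, 11.4, 22.5 and 889 muscle UMIs per 10000. The medians were 2.32, 24.4, 2.5, 2.74, 10.9 and 54.7 in Cdkn1a-low cells and 2.05, 14.5, 1.89, 2.7, 7.66 and 25 in cycling cells. At 100 or more muscle UMIs per 10000 lay 42.0% (95% Wilson interval 36.9 to 47.3), 60.1% (56.6 to 63.5) and 62.5% (48.4 to 74.8) of the selected cells of the young populations. In the old populations the shares were 20.2% (13.5 to 29.2), 14.4% (13.1 to 15.8) and 91.4% (86.0 to 94.8). Old replicate 2, which gave most of the selected cells, had the lowest share of strongly muscle-positive ones. Under 10 per 10000 lay 19.0%, 1.31%, 10.4%, 43.4%, 15.1% and 0% of the selected cells, with a Wilson upper bound of 2.32% for the 0 of 162 cells of old replicate 3.

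By level of Cdkn1a, the median muscle sum of every bin above the limit exceeded that of every bin below it within each population. In young replicate 1 the median muscle sum was 1.84, 2.42 and 5.18 per 10000 in non-cycling cells at 0 to 2, 2 to 5 and 5 to 10 Cdkn1a UMIs per 10000, and 18.7, 566.5 and 530.1 at 10 to 20, 20 to 40 and 40 or more. In old replicate 1 it was 2.44 at 0 to 2 and 257 at 20 to 40 (16 cells). In old replicate 2 it was 8.59 and 22.5 in the same bins, and 78.9 at 40 or more (607 cells). In old replicate 3 it was already 214.7 at 5 to 10, and 892 at 10 to 20. The median p53 target sum ranged from 40.7 to 50.3 over the bins of young replicate 1 and from 37.0 to 44.6 in old replicate 2, and was 52.4 at 0 to 2 and 33.2 at 10 to 20 in old replicate 3. In young replicate 2 it was 26.0 at 0 to 2, 30.1 at 5 to 10 and 21.1 at 40 or more. In young replicate 3 it was 40.1 at 0 to 2, 53.3 at 5 to 10, 35.6 at 10 to 20 and 27.0 at 20 to 40 (14 cells). In old replicate 1 it was 49.5 at 0 to 2, 57.2 at 5 to 10, 52.6 at 10 to 20, 36.9 at 20 to 40 (16 cells) and 45.2 at 40 or more (8 cells). These medians describe the cells of single libraries, and the p53 sums are mostly those of the abundant targets Rps27l and Bax. Over the 36 tested targets, these made up 54.6% to 65.6% of the summed CPM in Cdkn1a-high cells and 56.4% to 72.4% in Cdkn1a-low cells.

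**Figure D2:**
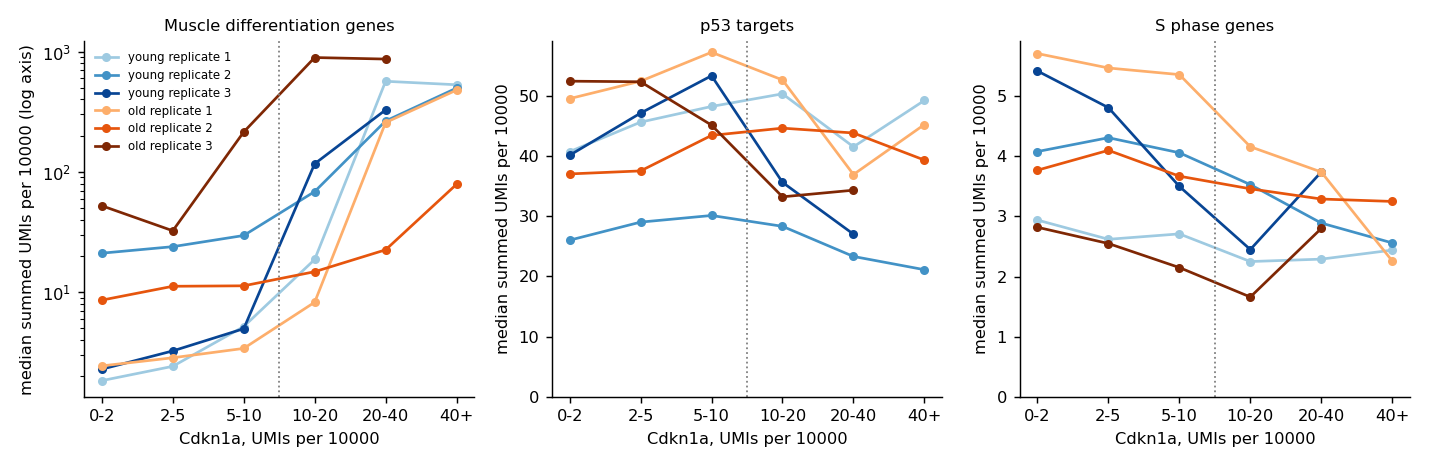
Median summed UMIs per 10000 of muscle differentiation genes, p53 targets and S phase genes in non-cycling cells by bins of Cdkn1a UMIs per 10000; each line is a population, the limit of 10 is marked, and bins under 5 cells are not drawn. At 20 to 40 the muscle sum is 566.5 in young replicate 1 and 22.5 in old replicate 2.

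The promoters of a pair of muscle genes are shown because the muscle list moved together and myogenic factors are known to bind the E-box CAGCTG, which reads the same on both strands. Capitals mark each copy. The windows are the 250 bases before the start in RefSeq's GRCm38.p6 annotation, chr7:127211358-127211607 for Mylpf and chr1:87205561-87205810 for Chrng, a subunit of the fetal acetylcholine receptor, both on the forward strand.
Mylpf: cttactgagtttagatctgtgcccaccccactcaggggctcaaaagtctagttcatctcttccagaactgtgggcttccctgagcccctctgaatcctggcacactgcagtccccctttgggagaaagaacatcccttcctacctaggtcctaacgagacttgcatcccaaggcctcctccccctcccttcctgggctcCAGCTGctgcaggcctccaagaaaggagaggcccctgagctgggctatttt
Chrng: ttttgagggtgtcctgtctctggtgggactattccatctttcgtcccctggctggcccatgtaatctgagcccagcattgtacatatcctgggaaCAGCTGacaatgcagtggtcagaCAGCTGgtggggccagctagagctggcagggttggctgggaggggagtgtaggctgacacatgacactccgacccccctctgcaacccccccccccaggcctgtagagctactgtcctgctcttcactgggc
The letters CAGCTG were present in 9 of 17 matched muscle list genes (52.9%), in 1 of 21 matched S phase genes and in 14.7% of all 27025 genes. Chrng rose by 2.23 on the log2 scale (edgeR adjusted p = 0.0285). The shares are a description, and a window without the letters says nothing about the factor.

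**Figure D3:**
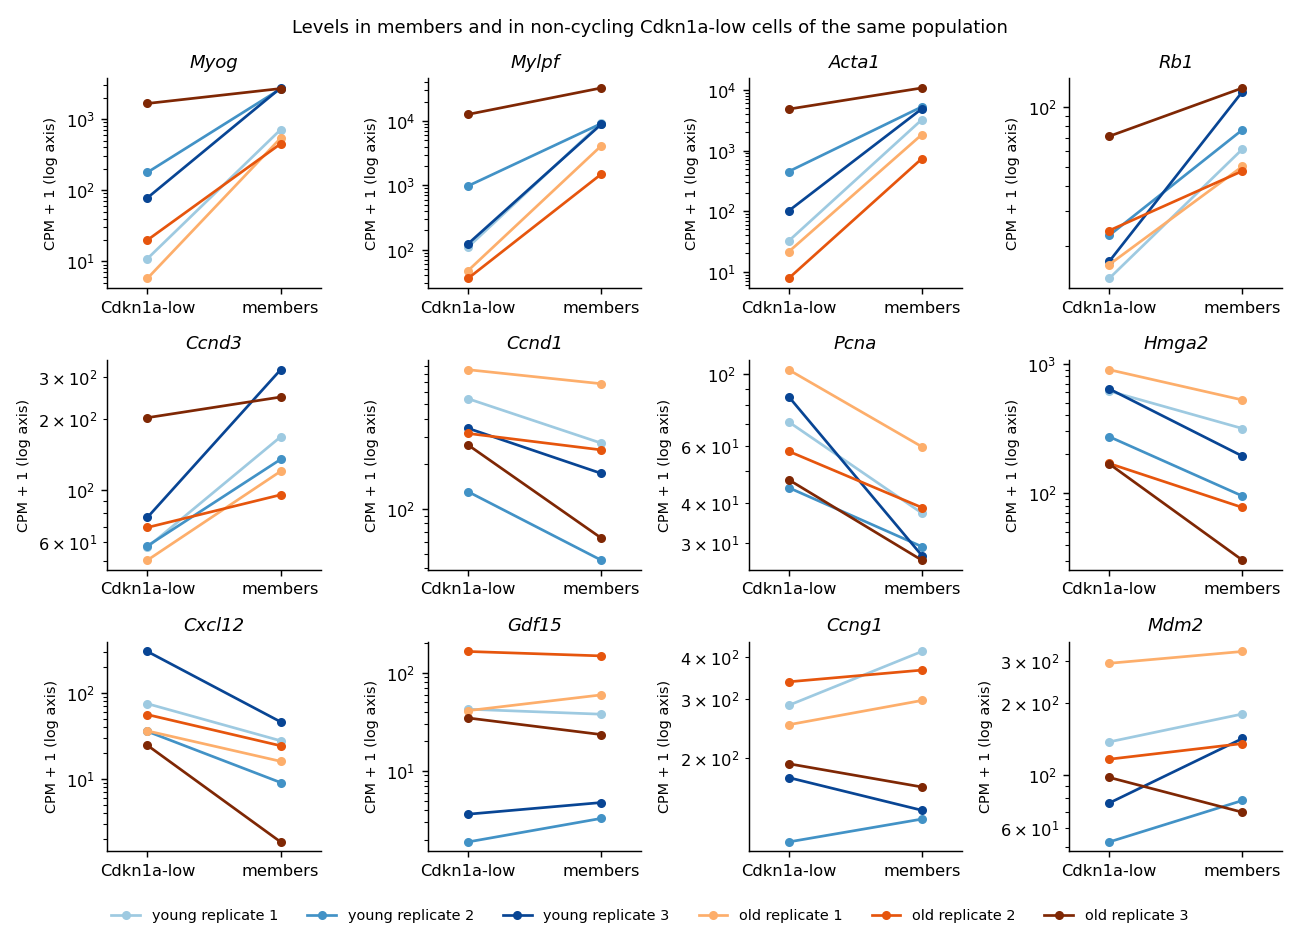
CPM + 1 (log axis) of 12 genes in Cdkn1a-low and Cdkn1a-high cells (members); each line joins the sums of 1 population. Myog, Mylpf, Acta1, Rb1 and Ccnd3 lie higher and Ccnd1, Pcna, Hmga2 and Cxcl12 lower in members of all 6 populations, while Gdf15 goes both ways.

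Of 36 tested genes that p53 is known to induce, 5 were higher and 2 lower, where 10.5% of all genes were higher and 12% lower. In 6 of 6 populations 3 were higher and 3 lower, where 11.3% of all genes were higher and 16.3% lower, with a median log2 fold change of 0.1 against -0.05 over all genes. Mdm2, the ubiquitin ligase that degrades p53, stood at 179, 77.2, 141, 329, 134.5 and 68.8 CPM against 137, 51.4, 75.3, 293, 115.5 and 96.7 CPM. It was lower only in old replicate 3, and its log2 fold change of 0.3 ± 0.15 did not pass (edgeR adjusted p = 0.172). Leaving out 1 population gave 3 to 7 targets higher and 0 to 2 lower. On the longer gene list alone 2 were higher and 0 lower (median 0.04), and on the shorter the median was 0.26. At a Cdkn1a limit of 5, 7 were higher and 1 lower (median 0.22), and at 20, 2 were higher and 2 lower (median -0.1). Without old replicate 3 the Mdm2 fold change was 0.44 (adjusted p = 0.0331). At a Cdkn1a limit of 5 and after thinning to 5000 UMIs it passed too (0.62 and 0.35, edgeR adjusted p = 0.0257 and 0.0219). At a Cdkn1a limit of 20 it was 0.01. There the Cdkn1a-low cells take in those at 10 to 20 and fewer populations enter, while at 5 they are those under 5. The limits therefore do not share a fixed comparison group. Here and below, thinning also lowered the limit on the summed G2 and mitosis UMIs from 2 to 0.

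The 5 targets that rose were Pmaip1 (the pro-death protein Noxa, 1.16 ± 0.21), Eda2r (a receptor of the tumour necrosis factor family, 1.13 ± 0.16), Ak1 (0.32 ± 0.08), Ei24 (0.29 ± 0.09) and Phlda3 (0.26 ± 0.07). Eda2r stood at 59, 38.8, 32, 37.6, 86.5 and 94.8 CPM against 13.2, 24.6, 12.9, 20.1, 51.1 and 47.5 CPM (edgeR adjusted p = 0.00279). Pmaip1 stood at 7.64, 9.66, 39.6, 40.2, 31.9 and 69.7 CPM against 1.71, 4.08, 8.35, 21.5, 19.3 and 49.2 CPM (edgeR adjusted p = 0.00757). Both were higher in every population. Bax, which opens mitochondria in cell death, fell by 0.26 (adjusted p = 0.0429) and Fdxr, an enzyme of mitochondrial electron transfer, by 0.63 (adjusted p = 0.0424). The other 29, among them Btg2, Sesn1, Sesn2, Zmat3, Plk2, Fas, Aen, Ddb2 and Xpc, did not pass, with fold changes between -0.55 (Ephx1) and 0.9 (Cd82).

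Trp53, the gene of p53, stood at 85, 75.5, 98, 97.9, 104 and 47.6 CPM against 107, 119.7, 133, 135, 129.5 and 93.3 CPM, lower in every population (-0.51 ± 0.09, edgeR adjusted p = 0.00422). After thinning to 5000 UMIs it did not pass (-0.32, edgeR adjusted p = 0.0574), nor in cells without the muscle program (-0.13, edgeR adjusted p = 0.876), where it was higher in 2 of 3 populations and none of 12 tested genes of the p53 machinery was called (lowest edgeR adjusted p = 0.173). Of 13 tested genes of the p53 machinery, 2 were higher and 3 lower, with a median of -0.16, where 10.5% of all genes were higher and 12% lower. Leaving out 1 population gave 1 to 2 higher and 1 to 2 lower, and 1 was lower without young replicate 1. Trp63, a relative of p53, rose by 3.13 ± 0.37 (adjusted p = 0.00125) at low levels of 1.58, 2.12, 22.6, 5.02, 0.48 and 33.8 CPM against 0.0912, 0.233, 1.94, 0.137, 0 and 8.04 CPM. Trp63 was too low to be tested at a Cdkn1a limit of 5, after thinning and with the limit on S phase genes. Nor was it tested in cells without the muscle program. Trp53bp1, a damage-site adaptor, stood at 0.34 (edgeR adjusted p = 0.0349) and did not pass without young replicate 1, 2 or 3 or old replicate 1 or 3 (edgeR adjusted p = 0.0523 to 0.0883), nor after thinning (0.17). Chek1, a kinase of the replication checkpoint, fell by 1.26 and Rpl11, a ribosomal protein that can hold back Mdm2, by 0.23.

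Of 10 tested genes of the other CDK inhibitors and pocket proteins, 1 was higher and 2 were lower, where 10.5% of all genes were higher and 12% lower. Rb1, the retinoblastoma protein that keeps replication genes off, stood at 60.6, 76, 119, 49.4, 46.8 and 124 CPM against 12.8, 21.7, 15.8, 15.2, 23 and 70.4 CPM, higher in every population (1.72 ± 0.25, edgeR adjusted p = 0.0052). Cdkn2a, whose locus makes p16 and p19Arf, stood at 8.43, 5.08, 3.77, 43.5, 28.8 and 417 CPM against 14, 12.1, 7.67, 89.7, 32.6 and 565 CPM, lower in every population (-0.67 ± 0.15, edgeR adjusted p = 0.0138). Gene counts do not separate its transcripts. Cdkn2b, which makes p15, fell by 0.57 (adjusted p = 0.0142), but did not pass after thinning (-0.3, edgeR adjusted p = 0.174) or without young replicate 1 (edgeR adjusted p = 0.0521). The other 7 genes did not pass, and the list median was -0.23. On the longer gene list alone none of the 10 was called (lowest edgeR adjusted p = 0.0555), and at Cdkn1a limits of 5 and 20 none was called lower. Without the muscle program none of 9 was called (lowest edgeR adjusted p = 0.144), and the log2 fold changes of Rb1, Cdkn2a and Cdkn2b were 0.83, -0.23 and 0.11, Cdkn2a being higher in 2 of 3 populations.

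Genes of G1 split: 3 of 12 rose and 8 fell, with a median of -0.59, where 10.5% of all genes were higher and 12% lower. Ccnd3, the D cyclin known to be kept in differentiating muscle, stood at 166, 133.5, 320.3, 119, 94.3 and 245 CPM against 56.3, 57, 75.5, 49.5, 68.4 and 201 CPM (1.15 ± 0.22, edgeR adjusted p = 0.0129). Ccnd1, the D cyclin of growth factor signalling, stood at 274, 44.4, 171.5, 684, 247 and 62.8 CPM against 543, 129, 344, 849, 318 and 266 CPM (-1.02 ± 0.22, edgeR adjusted p = 0.0185). Each went 1 way in all 6 populations. Their partner kinase Cdk4 fell by 0.63 (adjusted p = 0.00127), Ccne2 by 1.69 and Myc by 1.03, and Ccnd2 did not pass (-0.64 ± 0.21, adjusted p = 0.069). The other genes that rose were Cdk2 (0.68) and E2f4 (0.5), an E2f known for repression. The falls numbered 6, 3 and 5 without young replicate 1, 2 or 3 and 9, 9 and 5 without old replicate 1, 2 or 3, and after thinning none rose and 6 fell. Ccnd1 did not pass without young replicate 1, 2 or 3 (edgeR adjusted p = 0.0615, 0.0717 and 0.0537), neither it nor Ccnd3 passed on the longer gene list alone (edgeR adjusted p = 0.0668 and 0.109), and Ccnd1 was -0.48 at a Cdkn1a limit of 5 and -1.83 at 20.

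Genes of DNA replication, which the rule did not use, were lower in the selected cells. Neither class was limited on these genes, so cells in S phase could enter both, and their part was not tested. Of 24 S phase genes, 18 fell and 1 rose, with a median of -1.06, and 17 were lower in 6 of 6 populations. Over all genes 12% were lower and 10.5% higher, and 16.3% were lower in 6 of 6 populations by direction alone. Pcna, the sliding clamp of DNA polymerase, stood at 36.1, 28.2, 26.4, 58.6, 37.6 and 25.5 CPM against 70.2, 43.5, 84.3, 102, 56.7 and 46.1 CPM (-0.84 ± 0.13, edgeR adjusted p = 0.00331). The helicase subunits Mcm3, Mcm5 and Mcm6 fell by 1.37, 1.8 and 1.15. E2f8, an E2f repressor, passed as higher (1.08, adjusted p = 0.0227), but none of the 24 did without young replicate 1, 2 or 3, without old replicate 2 or at a Cdkn1a limit of 5, and the ribonucleotide reductase genes Rrm1 and Rrm2 did not pass (0.21 and 0.2). Of 23 tested G2 and mitosis genes outside the rule 4 fell, where 12% of all genes were lower, among genes that the shared limit keeps low in both classes. The falls numbered 2 without young replicate 2 or old replicate 3 and 1 on the longer gene list alone.

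**Figure D4:**
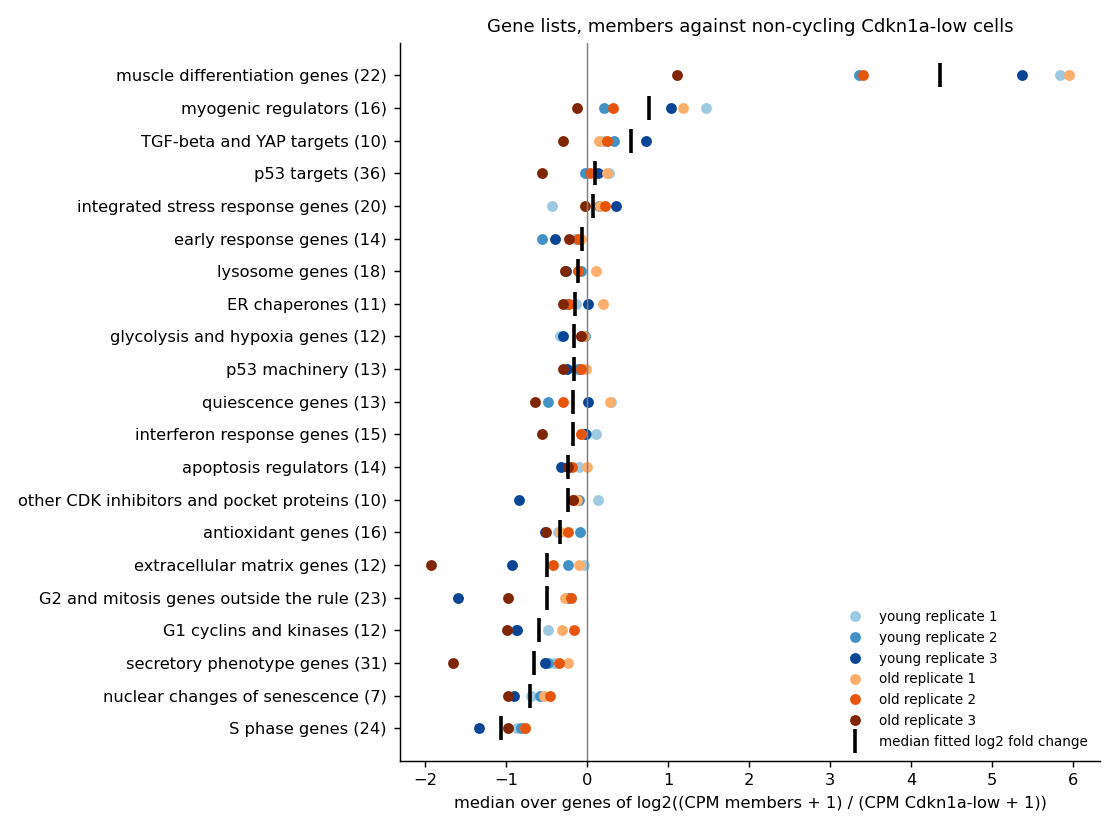
Median log2 ratio of CPM + 1 between Cdkn1a-high and Cdkn1a-low cells over the tested genes of each list, 1 point per population, with the median of the fitted log2 fold changes as a mark. Muscle differentiation genes stand at a fitted median of 4.35 and S phase genes at -1.06.

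Most genes tied to the senescent secretome were lower or did not pass. Of 31 tested secretory phenotype genes, 12 fell and 1 rose, with a median of -0.66, where 12% of all genes were lower and 10.5% higher. In cells without the muscle program, described below, the list median was -0.04 against -0.02 over all genes. Cxcl12, a chemokine, stood at 26.9, 8.13, 45.2, 15.1, 23.4 and 0.866 CPM against 74.1, 34.8, 302, 35.3, 55.1 and 23.7 CPM, lower in every population (-1.88 ± 0.29, edgeR adjusted p = 0.00644). The chemokines Ccl2 and Cxcl1 fell by 2 and 1.84, and Plaur (the urokinase receptor) by 1.1. The gene that rose was the cytokine Il1b, at 0.79, 4.32, 0, 2.51, 3.34 and 4.33 CPM against 0, 0.893, 0, 0.206, 0.426 and 2.85 CPM (2.3 ± 0.51, edgeR adjusted p = 0.0152), from few counts. It was too low to be tested without young replicate 2 or old replicate 2, at a Cdkn1a limit of 5, after thinning and with the limit on S phase genes. Nor was it tested on the shorter gene list alone or in cells without the muscle program. The 4 most abundant members, Spp1 (osteopontin), Timp2, Igfbp5 and Igfbp2, did not pass (-0.52, 0.22, 0.56 and 0.95). The falls of the list numbered 6 without young replicate 1, 8 without young replicate 2, 7 without old replicate 2, and 4 of 29 genes on the longer gene list alone.

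Of 7 genes of the nuclear changes of senescence, 5 fell, each in 6 of 6 populations. Over all genes 12% were lower, and 16.3% were lower in 6 of 6 populations by direction alone. The list sets no direction for its genes, so the count does not say how many changed as in senescence. Of these genes, only the loss of Lmnb1 is named above as a mark of senescent cells. Hmga2, a chromatin protein of progenitor cells, stood at 315, 94.1, 192, 524, 76.6 and 29.4 CPM against 614, 272, 638, 898, 169 and 167 CPM (-1.39 ± 0.18, edgeR adjusted p = 0.00309). Lmnb1 stood at 3.42, 10, 26.4, 10.9, 6.38 and 3.9 CPM against 9.85, 15.3, 33.4, 23.6, 9.55 and 7.74 CPM (-0.78 ± 0.18, edgeR adjusted p = 0.0132). Hmga1, Hmgb1 and H2afy fell by 1.39, 0.7 and 0.65, and Lmna did not pass (-0.11). On the longer gene list alone 3 of the 7 fell, and Lmnb1 did not pass there (-0.53, edgeR adjusted p = 0.0608), while on the shorter list it was -1.38. It also did not pass with a limit on S phase genes (-0.38, edgeR adjusted p = 0.401) or at a Cdkn1a limit of 20 (-0.7, edgeR adjusted p = 0.107).

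The largest falls among genes with a mean log2 CPM of 5 or more and 1 direction in every population began with Tm4sf1, a four-span membrane protein. It stood at 265, 10.8, 309, 207, 119.7 and 3.03 CPM against 1000.5, 30.8, 1278, 676, 276 and 143 CPM (-2.02 ± 0.46, edgeR adjusted p = 0.0327). Fxyd5, Emp1, Car8, Grem1 (a secreted antagonist of BMP signals), Tagln2 and Eps8 fell by 1.58 to 2, and Aldh3a1, Ier3, Bdnf (a neurotrophin) and Ptgs2 (the inducible cyclooxygenase) by 1.39 to 1.54. Each was lower in 6 of 6 populations, but in young replicate 2 Fxyd5 stood at 0 against 0.0388 CPM and Grem1 at 0.0847 against 0.194 CPM, which rest on very few counts.

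Calls in the stress, quiescence and death lists stand beside the 10.5% of all tested genes that were higher and the 12% that were lower. Of 20 integrated stress response genes 2 rose and 3 fell. Ppp1r15a and Slc7a5 rose by 0.39 and 0.7, and Slc7a11, a cystine transporter, fell by 1.03. Of 11 ER chaperones, Herpud1 and Dnajb9 rose by 0.88 and 0.55. Of 13 tested quiescence genes, Spry1, a brake on growth factor signalling in resting satellite cells, rose by 1.47 ± 0.2 (edgeR adjusted p = 0.00235), whereas Btg1 and Cd34 fell by 0.45 and 0.97. Of 14 apoptosis regulators, Diablo rose by 0.49 and 3 fell, among them Bcl2 and Xiap by 0.94 and 0.3. The falls of this list numbered 1 without young replicate 1 or 2 or old replicate 2 or 3 and 0 on the longer gene list alone. Diablo stood at -0.31 without the muscle program. Leaving out 1 population gave 1 to 2 rises and 2 to 3 falls of the integrated stress response genes, 0 to 2 falls of the ER chaperones (2 without old replicate 1) and 1 to 3 falls of the quiescence genes (3 without young replicate 1, 1 without young replicate 2).

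Markers of other cell types were summed in the same way. The 8 immune markers summed to 0 to 12.5 CPM in the selected cells, with Ptprc, Cd52 and Tyrobp at 0 in all 6 populations, and to 1.14 to 9.26 CPM in Cdkn1a-low cells. The 7 endothelial markers summed to 1.55 to 25.1 against 1.28 to 57.0 CPM, and the 6 glial markers, with Sox10 and Foxd3 at 0 in selected cells, to 1.58 to 6.69 against 1.12 to 8.12 CPM. The 5 adipocyte markers, with Adipoq, Cidec and Lep at 0 in selected cells, summed to 0 to 10.3 against 2.06 to 44.5 CPM. The 8 fibro-adipogenic markers, with Lum at 0, summed to 105 to 345 against 211 to 439.9 CPM. The 6 tendon markers summed to 256 to 373 against 157 to 382 CPM, with Tnmd, Fmod and Thbs4 at 0 in selected cells. Of the 3 tendon markers that could be tested, Scx, a tendon factor, rose by 0.68 and Tnc fell by 1.47, with a median of -0.55. The 8 myogenic markers summed to 1643 to 4893 against 162 to 3434 CPM. The 7 smooth muscle and pericyte markers, which include Des of the myogenic list, summed to 249 to 1166 against 48.9 to 697 CPM, and their part in the muscle result was not tested.

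Cells without the muscle program were compared in the same way, a split chosen after seeing the data. It took cells of both classes with 0 Myog UMIs and under 10 UMIs per 10000 of the muscle list. This left 64, 42 and 372 Cdkn1a-high cells in young replicate 1, old replicate 1 and old replicate 2, against 2667, 1105 and 437 Cdkn1a-low cells. Young replicates 2 and 3 and old replicate 3 had 9, 4 and 0 such Cdkn1a-high cells and were left out. edgeR called 30 of 11022 genes higher (0.272%) and 39 lower (0.354%), and 23.5% and 10.1% of genes were higher and lower in 3 of 3 populations.

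In these cells 23 of 36 p53 targets were higher and 1 lower in 3 of 3 populations, and 4 were called higher and none lower. Their median log2 fold change was 0.4, against -0.02 over all genes. Mdm2 stood at 331, 551 and 196 CPM against 142, 298 and 139.8 CPM in young replicate 1, old replicate 1 and old replicate 2, and rose by 0.71 ± 0.12 (edgeR adjusted p = 0.00128). Gdf15 stood at 108, 57 and 333 CPM against 46.3, 40.1 and 236 CPM (0.61 ± 0.14, edgeR adjusted p = 0.0322). Each was higher in all 3 populations. Btg2, an inhibitor of proliferation, rose by 0.82 (adjusted p = 0.013) and Gtse1 by 1.28 (adjusted p = 0.0261). Ccng1 stood at 508, 382 and 442 CPM against 276.5, 249 and 392 CPM and did not pass (log2 fold change 0.4, edgeR adjusted p = 0.131). Whether the targets differ between cells with and without the muscle program was not tested.

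In the same cells 3 of 14 myogenic regulators and 2 of 13 muscle differentiation genes were called higher and none lower. Myod1 stood at 83.1, 118 and 348 CPM against 31.5, 56.9 and 203 CPM (0.9 ± 0.14, edgeR adjusted p = 0.00021). Cdon and Hes6, which act early in the myogenic program, rose by 0.9 and 0.68. Ttn and Neb, both counted in the limit on muscle genes, rose by 1.27 and 1.01. Igfbp3, a binding protein of insulin-like growth factors, had the lowest adjusted p, at 28.6, 103 and 185 CPM against 7.75, 30.3 and 79.6 CPM (1.38 ± 0.16, edgeR adjusted p = 9.54e-07). Of 23 S phase genes 6 fell, among them Mcm3 (-1.56), Mcm6 (-1.16) and Pcna (-0.71). Of 31 secretory phenotype genes Igfbp3 rose and Mmp3 fell, with a list median of -0.04 against -0.02 over all genes. In 3 of 3 populations 6 of the list were higher and 5 lower. Mmp3 stood at 2.6, 2.11 and 0 CPM against 25.4, 2.93 and 0 CPM, so its fall rests mainly on young replicate 1. None of the 7 nuclear genes was called (lowest edgeR adjusted p = 0.144), while 6 of them were lower in 3 of 3 populations, with a median of -0.37. Lmnb1 stood at -0.89 (edgeR adjusted p = 0.154). Of 12 G1 genes none rose and 1 fell, with a median of -0.07, and Ccnd3 and Ccnd1 stood at 0.03 and -0.13 (edgeR adjusted p = 0.993 and 0.828).

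**Figure D5:**
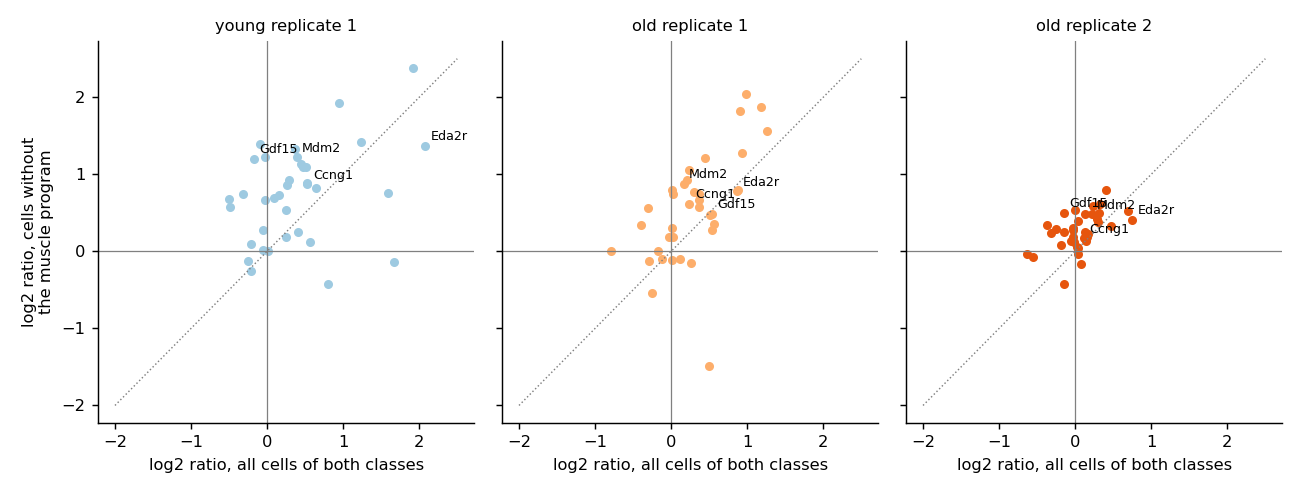
Log2 ratio of CPM + 1 between Cdkn1a-high and Cdkn1a-low cells for the p53 targets in all cells of both classes (x axis) and in cells without the muscle program (y axis), 1 point per gene in 3 populations, with equal values on the dotted line. On the y axis Mdm2 lies at 1.22, 0.88 and 0.48 and Gdf15 at 1.2, 0.49 and 0.5 in young replicate 1, old replicate 1 and old replicate 2.

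Against all other kept cells, most of which were cycling, 1995 of 13320 genes (15%) were higher and 2735 (20.5%) lower. The muscle differentiation genes were higher in 22 of 22 cases, with a median of 4.99, and Cox6a2, Smpx and Myl1, all of muscle fibres, rose by 5.31, 5.26 and 5.32. Of 36 p53 targets 6 rose and 6 fell (median -0.02), and Gdf15 and Ccng1 did not pass (-0.22 and -0.02, edgeR adjusted p = 0.513 and 0.913). The 23 of 24 S phase genes and 24 of 24 G2 and mitosis genes that were lower go with the limit on cycling and are a description.

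Within the Cdkn1a-high cells, old and young populations differed at 1 of 9999 genes tested (0.01%), and 429 genes (4.29%) had no overlap between the groups. At an unadjusted p under 0.05 there were 260 genes in edgeR. DESeq2 called 34 genes, and edgeR with the replicate number as a block called 7. The called gene was Alox5, 5-lipoxygenase, an enzyme of leukotriene synthesis, whose level in young replicates 1, 2 and 3 was 0.527, 0.169 and 0 CPM, and in old replicates 1, 2 and 3 was 55.2, 77.5 and 52.4 CPM, from 4 and 4385 counts (log2 fold change 7.76 ± 0.55, edgeR adjusted p = 0.0194). The call was lost without young replicate 1 or 3, without old replicate 1 or 2, and on the longer gene list alone. Cdkn1a-low cells held 0.0228, 0.194, 0.114, 26.2, 59.1 and 81.5 CPM, and the classes showed no difference past the threshold (0.32 ± 0.28, edgeR adjusted p = 0.455). Cyba, a subunit of the NADPH oxidase, had 0 counts in the young populations and stood at 5.02, 118 and 48.0 CPM in the old ones (edgeR adjusted p = 0.146).

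Cdkn2a in the Cdkn1a-high cells stood at 5.76 ± 2.4 CPM (SD, n = 3) in the young and 163 ± 219.9 CPM (SD, n = 3) in the old populations, without overlap, and did not pass (edgeR adjusted p = 1.0). Cdkn1a stood at 2101 ± 274 against 2142 ± 813 CPM, Myog at 2041 ± 1152 against 1227 ± 1270.2 CPM and Gdf15 at 14.3 ± 19.5 against 76.3 ± 64.5 CPM, each with overlapping groups. A test of whether the difference between Cdkn1a-high and Cdkn1a-low cells depended on age called 0 of 12534 genes in edgeR (0.0%), with 427 at an unadjusted p under 0.05, and 5 in DESeq2.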

How the data were processed

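The authors deposited raw UMI counts per gene and barcode for 3 young and 3 old populations, per the file headers: Cell Ranger 7.0.0 and 21849 features for young and old replicate 1, version 7.2.0 and 32285 features for the other 4. The submitters' processing notes name mm10, Cell Ranger 7.2.0 and Seurat. How barcodes were called as cells is not given in the sources used here.

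Of 62849 barcodes, 60325 were kept. Class sums held 530721 to 54189993 UMIs for Cdkn1a-high and 8740507 to 43854331 for Cdkn1a-low cells, so 1 count was worth 0.0185 to 1.88 CPM in the former. Sums over the 21485 shared genes, without the 11 genes of the rule, entered a quasi-likelihood fit (edgeR 4.0.16, R 4.3.3) after filterByExpr and TMM scaling, with robust dispersions and two-sided F tests, adjusted by Benjamini-Hochberg over all genes at a threshold of 0.05. Terms were population and class, or for age the gene list and group. Standard errors are the log2 fold change over the square root of F. Sums of at least 20 cells entered. CPM are unscaled and log2 ratios add 1 CPM. The fits were tested on simulated counts. Symbols held by more than 1 gene ID were left out of list counts. Doublets were not called.

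Members and lists were chosen with earlier results of these data known. Named genes were up to 12 per direction and comparison with the largest change (adjusted p under 0.05, mean log2 CPM of 5 or more, same direction in every population), all p53 targets, the 4 most abundant of each list and the called genes of lists with fewer than 6 calls. Mymk, Mymx, Mef2c, Mef2a, Myf6, Pax3, Pax7, Tpm1, Ldb3, Ccn2, Chrng, Myc, Cdk2, E2f4, E2f8, Ccl2, Cxcl1, Plaur, Il1b, Scx, Tnc, Alox5, Cyba, Fosl1 and the genes called in cells without the muscle program were named after their values were seen. Some called genes of the lists are not reported here by name. Replicate numbers come from the labels. Same-numbered young and old sums deviated together from their group means (r = 0.44, 0.17 and 0.14 across genes), which met the limit for pairing, though young replicate 2 correlated as well with old replicate 3 (0.17) and the pair numbered 1 shares a gene list. Alternatives were DESeq2 1.42.0, other size factors, filters and Cdkn1a limits, thinning to 5000 UMIs, and a limit on S phase genes. Each Cdkn1a limit also set the upper bound of its Cdkn1a-low cells. Others left out the deepest 5% of cells or each replicate, or used either gene list alone. The thinned setting also lowered the limit on the summed G2 and mitosis UMIs from 2 to 0. Its results therefore mix depth with a changed class rule, and the part of each was not tested.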

Additional observations from a re-analysis of the deposited data

Results flagged for a closer look

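Single populations stood apart from the other 5 in 7 of 23 measures tested by the gap to the nearest value over the range (Dixon's critical value 0.625 for 6 populations), a test that chance passes in about 1 in 20 cases. Old replicate 2 stood apart in the share of Cdkn1a-high cells among kept cells (31.7%) and among non-cycling cells (73.3%). Old replicate 3 stood apart in the median log2 ratio of Cdkn1a-high to Cdkn1a-low cells for p53 targets (-0.55), secretory phenotype genes (-1.65) and interferon response genes (-0.55). Young replicate 3, with 48 such cells, stood apart for the other CDK inhibitors (-0.84) and S phase genes (-1.33).

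A feature named LACZ in the shorter gene list, which no comparison used, had 121 counts in the Cdkn1a-high cells of young replicate 1, or 31.8 CPM with a 95% Poisson interval of 26.4 to 38.0. Its Cdkn1a-low and cycling cells held 22.9 and 20.1 CPM. The Cdkn1a-high cells of old replicate 1, the other library on that list, had 0 counts.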

How the results depend on the processing

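Against Cdkn1a-low cells, the 1224 higher and 1399 lower genes became 0 and 0 with no replicate block (1735 at an unadjusted p under 0.05). They became 560 and 538 on the longer gene list, 612 and 689 at a Cdkn1a limit of 20, 595 and 716 after thinning, 511 and 616 with the S phase limit, and 30 and 39 without the muscle program. On the shorter list 900 were lower, at a limit of 5 784 were higher, and leaving out a replicate gave 728 to 992 higher and 738 to 1107 lower. Against all other cells, no replicate block gave 720 and 1187, the longer list 1272 higher, the shorter 1702 lower, a limit of 20 1144 higher and thinning 1319 higher. The old against young count of 1 became 34 with DESeq2, 219 without a filter, 7 with the replicate block, 0 to 3 with a replicate left out, 0 on the longer list, 4 and 10 at limits of 5 and 20, and 7 after thinning. The interaction count of 0 became 5 with DESeq2, 0 to 4 with a replicate left out, 1 on the longer list and 4 at a limit of 5. The share difference turned to -2.72 points without old replicate 2 and -3.06 on the shorter list, ranged from -2.72 to 12.6 with a replicate left out, and gave p = 0.75 in an exact sign-flip test over the replicate block (smallest possible 0.25). Gdf15 turned to -0.0033 with no replicate block, -0.07 without young replicate 2, -0.02 without old replicate 1 (up to 0.21 with another replicate left out), -0.4 at a limit of 20 and -0.1 with the S phase limit. Without the muscle program the sign turned for Myl1 (-0.41), Cdkn2b (0.11), Diablo (-0.31), Bnip3 (-0.18), Ankrd37 (-0.13), Btg1 (0.11), Fdxr (0.09), Hist1h2ap (0.04) and Mef2c (-0.55), which were called in all cells, and for Ephx1 (0.29), Ccnd2 (0.22), Rrm1 (-0.44), Timp2 (-0.03) and Pax7 (0.18), which were not. Of 189 named genes with a value in both fits, 40 turned there, 9 of them called in all cells. Other values that did not pass turned for Rrm1 (-0.0034) and Igfbp5 (-0.0036) and for Alox5 (-0.01) on the longer list, Pax7 (0.33) on the shorter, Rrm1 (-0.08) after thinning, Rrm2 (-0.04) at a limit of 5 and Lmna (0.003) at a limit of 20. The cause was not tested. Of 2412 values over the 137 genes followed through up to 20 settings, 1692 kept direction and side of the threshold, 663 lost the call, 31 gained it and 26 turned. Age and interaction fits on the shorter list were not run, since it holds 1 library per group. At a limit of 20 only 4 populations had enough cells, and the 48 cells of young replicate 3 limit what low genes can show.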

Other observations

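Metabolic, matrix and lysosome genes were compared between Cdkn1a-high and Cdkn1a-low cells, where 10.5% of all tested genes were higher and 12% lower. Of 12 tested extracellular matrix genes none rose and 3 fell (list median -0.5), namely Fn1 (fibronectin, -1.07 ± 0.15), Fbn1 (fibrillin, -1.47 ± 0.24) and Col6a1 (-1.34 ± 0.23), each in 6 of 6 populations by edgeR. Of 18 lysosome genes Ctsd (cathepsin D) rose by 0.45, while 2 fell, among them Ctsl by 0.42. Of 12 glycolysis and hypoxia genes, Bnip3 and Ankrd37, both induced by low oxygen, rose by 0.44 and 0.81, and Hk2, Pfkp and Eno1 fell by 0.68, 0.53 and 0.3. Of 16 antioxidant genes 1 rose and 6 fell, among them Mt1 (metallothionein, -0.82 ± 0.17). Of 15 tested interferon response genes Irf1 fell by 0.96 and none rose. Of 14 early response genes Junb rose by 0.6 and 5 fell, among them Ier3 and Fosl1 (-1.53 and -1.21). Leaving out 1 population gave 0 to 3 falls of the lysosome genes (0 without young replicate 1 or 2), 1 to 2 of the glycolysis and hypoxia genes (1 without young replicate 1) and 3 to 5 of the early response genes (3 without young replicate 2), and on the longer gene list alone 1 antioxidant gene fell.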
